A study of Mus musculus with 2 samples.

Results

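The genes described here encode heterotrimeric G proteins, their regulators and the enzymes that make and break cyclic nucleotides. They were taken by gene symbol: the G alpha, G beta and G gamma subunits, the regulators of G protein signalling (RGS), the adenylyl cyclases (Adcy), the phosphodiesterases (Pde), the beta-arrestins (Arrb) and the G protein-coupled receptor kinases (Grk). Only probe sets that the platform annotation assigns to 1 gene were used, which gave 93 genes with 221 probe sets, of 18194 genes with 34958 such probe sets. The samples were freshly isolated neutrophils (DAPI-, Gr-1high, CD48-) sorted by flow cytometry from the bone marrow of C57BL/6 mice, after blocking of Fc receptors with an antibody to CD16/32 and staining on ice, with no other treatment named (no source used here gives their age, sex or number). Each of 2 independent experiments gave 1 expression array, replicate 1 and replicate 2, so there is 1 group and no control. The symbol rule also took some genes of other function. They include Gnasas1 (an antisense RNA of the Gnas locus) and Pde4dip (myomegalin, a protein of the centrosome and Golgi). Further ones are Pde6d (a chaperone of prenylated proteins) and Pde12 (a nuclease of mitochondria). It also took the subunits Pde6g and Pde6h and the anchors Rgs7bp and Rgs9bp. Grk2 was not analysed here.

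As background, a chemoattractant receptor on a neutrophil switches a G alpha subunit to its GTP form and frees the beta-gamma dimer from it. In neutrophils the Gi class carries most of this signal, and its beta-gamma dimers drive phosphoinositide 3-kinase gamma, phospholipase C beta and cell movement. RGS proteins speed the hydrolysis of GTP and so shorten the signal, while receptor kinases and arrestins uncouple the receptor itself. Cyclic AMP, made by adenylyl cyclases under Gs and degraded by phosphodiesterases, restrains many neutrophil responses.

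A signal is the MAS5 intensity of a probe set in arbitrary units, and a gene's values are those of its brightest probe set. Probe sets for sensory receptor genes, 87 in number, set the background at their 95th percentile, a signal of 108 for replicate 1 and 131 for replicate 2. A probe set that exceeded it on both arrays counts as above background, as does any gene with such a probe set, and these genes are also termed called. Probe sets bind with different strengths, so isoforms were compared by their calls and by how far the arrays differed, not by ranking their signals. A call still sets every probe set against the same background of its array, so binding strength also affects the calls. Differences are log2 signal of replicate 2 minus replicate 1, and the arrays are single samples, so no p-value is given. In a bulk sample, fewer cells of a type and less RNA per cell cannot be told apart.

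Of the 93 genes, 36 (38.7%) were above background on both arrays, 15 on 1 array alone and 42 on neither. The share over all measured genes was 40.4%, so the group as a whole did not stand apart. The isoforms above background are listed below as a description only. By probe set the share was 75 of 221 (33.9%), against 35.5% over all single-gene probe sets. Over all genes, those with more probe sets were called more often, and members had a mean of 2.38 probe sets against 1.92 per gene. Of members with 4 or more probe sets, 11 of 16 were above background (68.8%, against 68.6% of all such genes). With 3 probe sets it was 8 of 21 (38.1%, against 58.1%), and with 2 it was 9 of 22 (40.9%, against 46.7%). With 1 probe set it was 8 of 34 (23.5%, against 26.7% of all such genes). The plot of calls by family shows, above background on both arrays, 8 of 15 G alpha, 3 of 5 G beta and 3 of 9 G gamma genes. For RGS it shows 7 of 21, for cyclases 3 of 10, for phosphodiesterases 8 of 25 and for arrestins and receptor kinases 4 of 7. The phosphodiesterase count includes Pde4dip, Pde6d, Pde6g, Pde6h and Pde12, of which 3 of 5 were called. Of the cyclic nucleotide enzymes, 2 of 7 cyclic AMP, 3 of 8 dual and 0 of 5 cyclic GMP genes were called. The RGS count includes Rgs7bp and Rgs9bp, neither called.

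**Figure D1:**
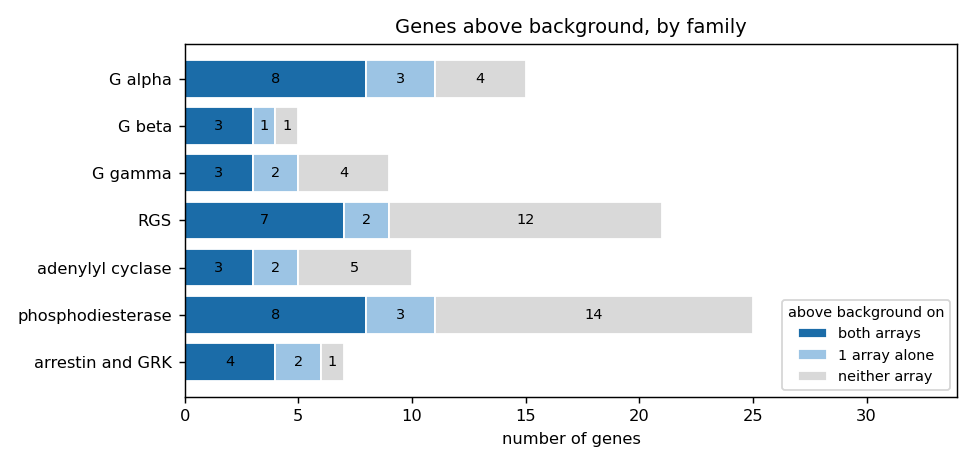
Number of genes (horizontal axis) of each family that were above background on both arrays, on 1 array alone or on neither. The 12 RGS and 14 phosphodiesterase genes on neither array are the long grey parts of their bars. These 2 bars include the genes of other function that the symbol rule took. The antisense RNA Gnasas1, also on neither, is left out.

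The G alpha subunits above background came from all 4 classes. Of the Gi/o class, Gnai2 had signals of 7901 on replicate 1 and 7888 on replicate 2, a log2 difference of 0.00. Gnai3 had 7771 and 7886, a difference of 0.02 (-0.20 on its second probe set). Both paralogues, which inhibit adenylyl cyclase and release the beta-gamma dimers of chemoattractant receptors, were nearly level between the experiments on their brightest probe sets. The third paralogue, Gnai1, had 74.7 and 101 on its brightest of 3 probe sets and was above background on neither array. Gnat1, the transducin subunit of rod photoreceptors, had 12.6 and 18.7 and was also on neither. Gnaz was on neither array too, whereas Gnao1 (Go, abundant in brain) was on replicate 1 alone with 133 and 109, and Gnat2, the cone transducin, was on replicate 2 alone with 83.9 and 140.

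Of the Gq class, whose members activate phospholipase C beta, Gnaq had 1954 on replicate 1 and 1830 on replicate 2. All 7 of its probe sets were above background, with differences from -0.11 to 0.17, so they varied little around 0. Gna15, a Gq class gene of blood cells, had 170 and 212, and Gna11 had 164 and 166. Both lay close to the background, and neither was called with the 99th percentile as background. Gna14 had 82.3 and 87.3 and was on neither array.

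Both members of the G12/13 class were above background. Gna13 had 2292 on replicate 1 and 2200 on replicate 2, with all 7 probe sets above background and differences from -0.40 to 0.08. Gna12 had 235 and 315 on 1 of its 5 probe sets, while its other 4 were not above background on both arrays. For Gs, the activator of adenylyl cyclase, Gnas had 1752 and 2279, a difference of 0.38. This call rests on 1 of 5 Gnas probe sets, of the kind that can bind several transcripts, and was lost when such probe sets were left out. Gnal, the olfactory relative of Gs, was above background on replicate 1 alone (226 and 122).

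Among G beta subunits, Gnb1 had 3278 on replicate 1 and 3421 on replicate 2, a difference of 0.06. Its other probe set above background differed by 0.53. Gnb2 had 5441 and 4545, a difference of -0.26 on its single probe set. Gnb4 had 263 and 207 on 1 of 3 probe sets and was not called with the 99th percentile as background. Gnb5, the distant paralogue that pairs with the R7 class of RGS proteins, was above background on replicate 2 alone with 84.8 and 238. Gnb3, a subunit of cone photoreceptors, had 53.0 and 127 and was on neither.

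The G gamma subunits, prenylated partners of the beta subunits, had 3 genes above background. Each was lower on replicate 2, as were 43.7% of all genes above background. Gng12 had 1584 on replicate 1 and 985 on replicate 2, a difference of -0.68 (-0.18 on its second probe set). Gng2 had 1487 and 1061, a difference of -0.49, and all 4 of its probe sets were lower on replicate 2, by values from -0.87 to -0.18. Gng10 had 2315 and 2110, a difference of -0.13. All 3 lay below the median of all genes above background, which was 0.07, and were also lower on replicate 2 with quantile normalization. Gng4 was above background on replicate 1 alone (209 and 93.7) and Gng3 on replicate 2 alone (83.3 and 138). The other 4, Gng7, Gng8, Gng11 and Gng13, were on neither array, with signals from 5.71 to 89.7. Gng5 has no probe set of its own in the annotation and is not among the 93 genes. The 2 probe sets above background that it shares with its pseudogene differed by -0.05 and 0.16.

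**Figure D2:**
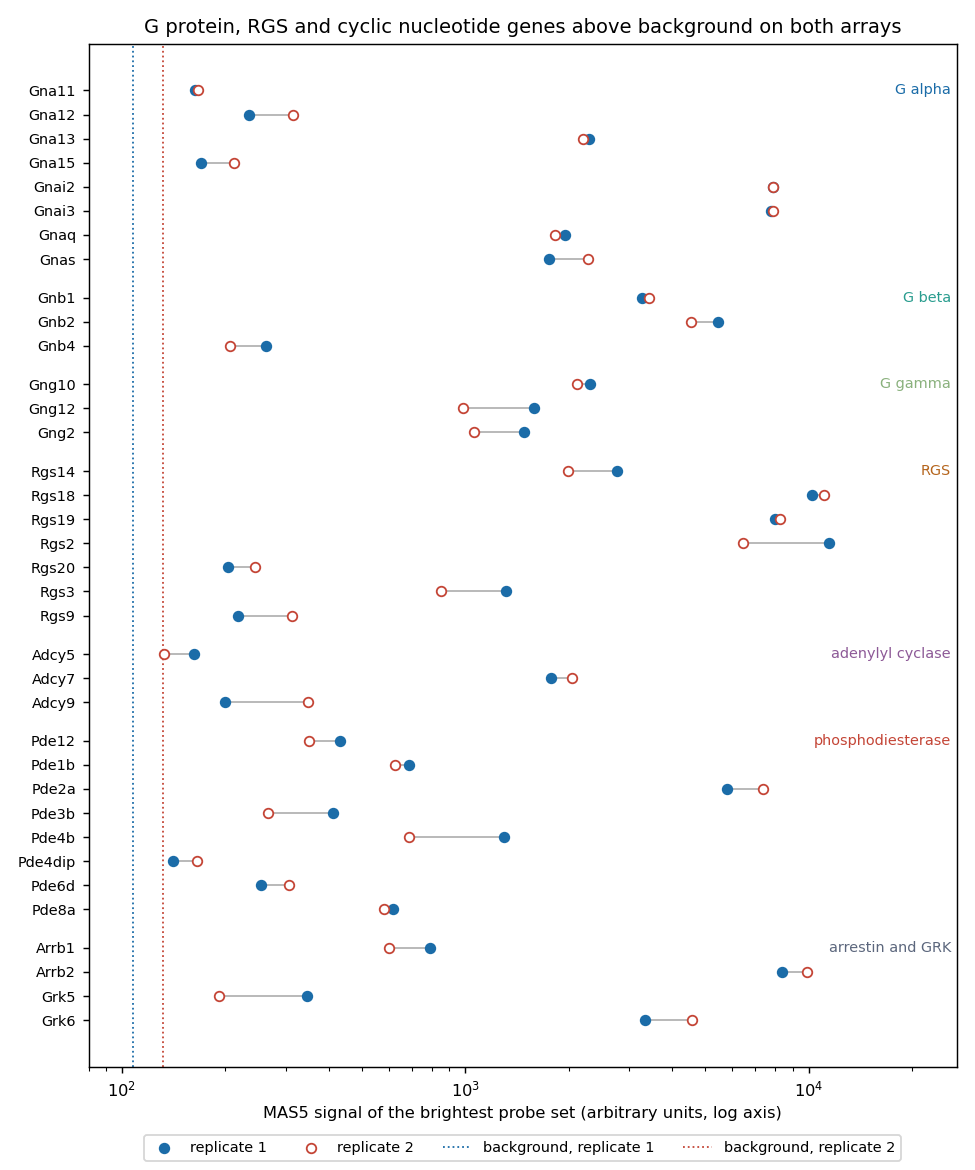
MAS5 signal of the brightest probe set (log axis) of each of the 36 genes above background on both arrays, filled for replicate 1 and open for replicate 2, with the background of each array dotted. Gnai2, Gnai3, Gnaq and Gna13 overlap or nearly overlap between arrays, while Rgs2, Pde4b and Grk5 are set apart; brightness is not comparable from gene to gene.

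The RGS genes above background were spread over the R4, RZ, R7 and R12 classes, and 7 of 21 in all (33.3%) were called, near the 40.4% of all genes. In the R4 class, of small RGS proteins, 3 of 9 were above background. Rgs2, which prefers Gq, had 11507 on replicate 1 and 6434 on replicate 2, a difference of -0.84. Of its 4 probe sets 3 were above background, and they differed by -0.91 to -0.82. Rgs18, a regulator of Gi and Gq in platelets and marrow cells, had 10228 and 11114, a difference of 0.12. Rgs3 had 1315 and 848, a difference of -0.63, and its probe sets above background ran from -1.07 to 0.19. The only higher one had 117 and 134, just over the backgrounds of 108 and 131. Rgs1, known from lymphocytes, had 37.1 and 42.6, and Rgs4 had 31.4 and 61.4. Neither was called on any array, nor were Rgs8, Rgs13 and Rgs16, and Rgs5 was on replicate 1 alone (133 and 93.6).

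In the RZ class, Rgs19, a Gi-directed regulator also called GAIP, had 8000 on replicate 1 and 8251 on replicate 2, a difference of 0.04. Its second probe set differed by 0.47. Rgs20 had 204 and 244 on 1 of 3 probe sets, and Rgs17 was not called. In the R12 class, Rgs14, which also binds inactive Gi subunits through a GoLoco motif, had 2769 and 1992, a difference of -0.48. Rgs10 had 107 and 80.6 on its single probe set, just under the background of replicate 1, and was on neither array. Rgs12 was on replicate 1 alone (167 and 77.1). In the R7 class, Rgs9, known from photoreceptors and striatum, had 218 and 313 on 1 of 3 probe sets, while Rgs6, Rgs7 and Rgs11 were not called. Rgs7bp and Rgs9bp, membrane anchors of the R7 class, were on neither array.

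Of the adenylyl cyclases, 3 of 10 were above background. Adcy7, the cyclase of blood cells that beta-gamma dimers boost, had 1776 on replicate 1 and 2040 on replicate 2, and all 3 probe sets were higher on replicate 2, by 0.20 to 0.91. Adcy9, a widely expressed cyclase, had 200 and 348, and its 3 probe sets above background were likewise higher, by 0.33 to 0.80. Adcy5, known from heart and striatum, had 162 and 133 on 1 of 4 probe sets. On replicate 2 this lay barely over the background of 131. The call was lost with the 99th percentile, with genes of other organs as background and by the majority of probe sets. It was also lost when the less specific probe sets were left out. The called Adcy5 probe set is not of that kind, but leaving them out raised the background of replicate 2 to 134. Adcy2 (198 and 124) and Adcy3 (168 and 103) were on replicate 1 alone. The calcium-stimulated Adcy1 and Adcy8, the beta-gamma-stimulated Adcy4, the calcium-inhibited Adcy6 and the soluble Adcy10 were on neither array, with signals from 4.08 to 104.

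The cyclic nucleotide phosphodiesterases above background were Pde1b, Pde2a, Pde3b, Pde4b and Pde8a. Pde2a, a dual enzyme that cyclic GMP stimulates, had 5800 on replicate 1 and 7348 on replicate 2, with all 3 probe sets above background and higher on replicate 2, by 0.15 to 0.34. Pde4b, the cyclic AMP phosphodiesterase that endotoxin induces in monocytes, had 1296 and 686, a difference of -0.92. Its 3 probe sets above background were all lower, by -0.92 to -0.52, and 3 others were not called on both arrays. Pde3b, which cyclic GMP inhibits, had 411 and 266, a difference of -0.63. Pde1b, a calcium-calmodulin enzyme, had 687 and 623. Pde8a, a cyclic AMP enzyme of high affinity, had 618 and 579, a difference of -0.09, but its second probe set had 111 and 254, a difference of 1.20.

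Among isoforms of the same groups, Pde4a (84.8 and 77.2 on its single probe set) and Pde4d (9.46 and 11.5 on the brighter of 2) were not called, so Pde4b was the only called member among the 3 measured Pde4 genes, and it was not called by the majority of its 6 probe sets. Of the calcium-calmodulin enzymes, Pde1a (48.5 and 63.9) and Pde1c (69.3 and 49.9) were on neither array. Pde7a was on neither array on any of 7 probe sets, and Pde7b was on replicate 1 alone through 1 probe set with 157 and 11.0. None of the 5 cyclic GMP enzymes (Pde5a, Pde6a, Pde6b, Pde6c and Pde9a) was above background on either array, and Pde6g, an inhibitory subunit of the photoreceptor enzyme, was on replicate 1 alone with 136 and 89.9. Pde11a was on replicate 2 alone, with 46.1 and 238. Pde6d had 254 and 308, Pde12 had 432 and 352, and Pde4dip had 141 and 166, the last not called with the 99th percentile.

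Both beta-arrestin genes were above background. Arrb2 had 8355 on replicate 1 and 9867 on replicate 2, with its 2 probe sets at differences of 0.24 and 0.28, and Arrb1 had 791 and 601, a difference of -0.40. Of the receptor kinases, Grk6 had 3334 and 4587 with all 3 probe sets above background and differences from -0.10 to 0.46. Grk5 had 346 and 192 on 1 of 2 probe sets, a difference of -0.85, and was not called with the 99th percentile. Grk3 was on replicate 2 alone (105 and 203), Grk4 on replicate 1 alone (116 and 128 on the brighter probe set), and Grk1, a kinase of photoreceptors, on neither (8.84 and 2.59).

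With the signals as deposited, these genes had a median absolute difference between the experiments close to that of all genes above background. None of the 36 differed over 2-fold on its brightest probe set, against 5.4% of all genes above background, and 28 of 36 differed by less than 0.5 on the log2 scale. The median difference was -0.03, against 0.07 over all genes above background, and the median absolute difference was 0.29, against 0.30. Lower on replicate 2 by any size were 19 of 36 (52.8%), against 43.7% of all genes. By over 0.5, 6 were lower (16.7%, against 10.4% of all genes) and 2 were higher (5.56%, against 16.7% of all genes). The 6 were Pde4b, Grk5, Rgs2, Gng12, Rgs3 and Pde3b, and the 2 were Adcy9 and Rgs9. With 1 array per experiment, these shares describe 2 arrays and have no replicate check. Over the 36 genes Pearson's r of log2 signal between the arrays was 0.98 and Spearman's correlation 0.97, values across genes that share the same arrays.

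The plot of differences by probe set shows on which side of 0 the probe sets of a gene lie. This does not measure how close they are. Those of Gnai2 (-0.002 and 0.026) lay on both sides, and those of Adcy7 (0.20 to 0.91) on the same side. Of 20 genes with 2 or more probe sets above background, 11 had all of them on the same side of 0. They were Rgs2, Gng2, Gng12 and Pde4b on the lower side, and Adcy7, Adcy9, Pde2a, Arrb2, Rgs19, Gna11 and Gnb1 on the higher side. The brightest probe set of each of these higher genes except Adcy9 was lower on replicate 2 when the arrays were scaled to the hybridisation controls, and those of Rgs19, Gna11 and Gnb1 also with median scaling. Median and control scaling lower every difference by a constant, so a gene lower on replicate 2 cannot change sign under them. With quantile normalization, which can change it, the 6 genes lower by over 0.5 were lower too. Rgs9 was lower with the control scaling. Probe sets of a gene share the RNA and the array, so they check the reading of a gene and not its repeat in another experiment.

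**Figure D3:**
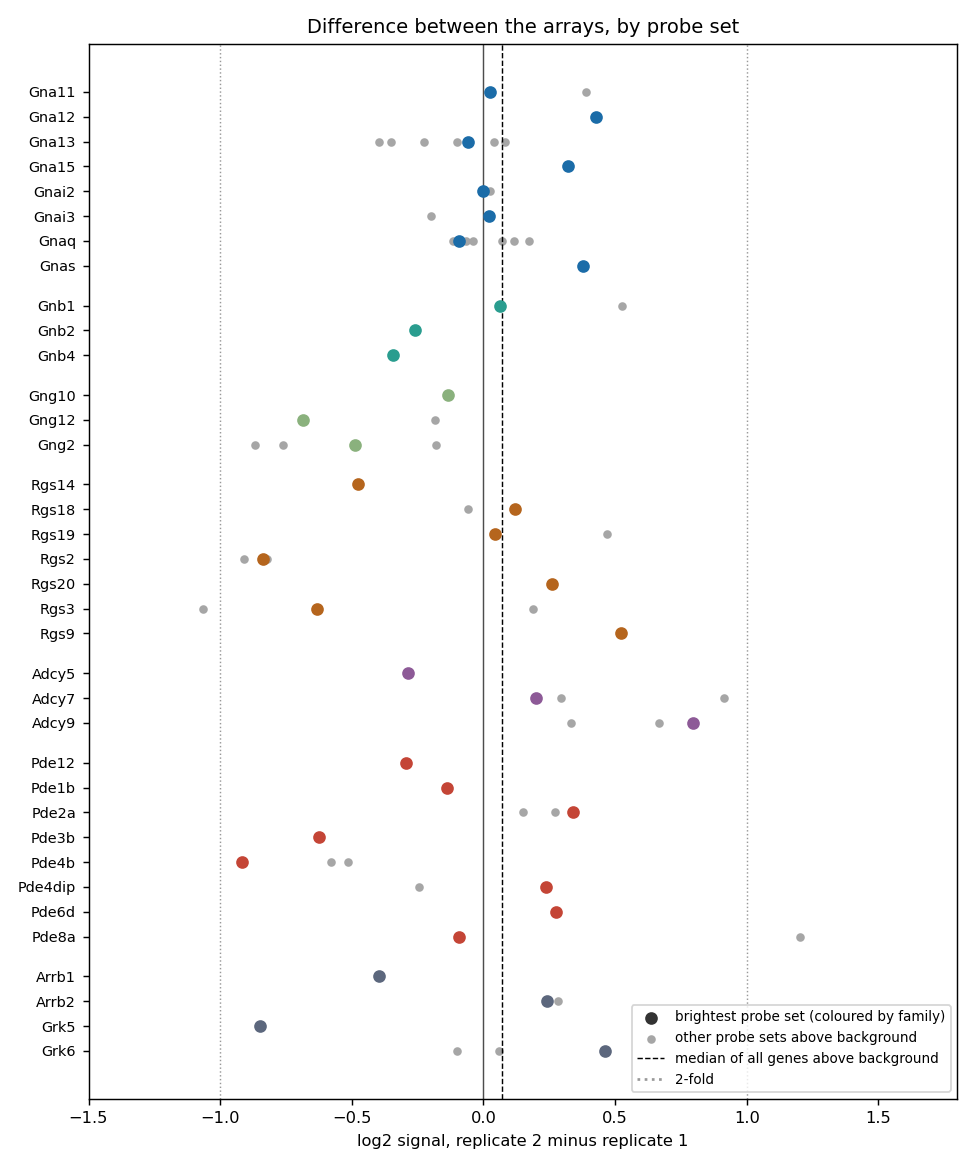
Log2 difference of replicate 2 minus replicate 1 (horizontal axis) for each probe set above background of the 36 genes, with the brightest in colour and the others in grey. The brightest probe sets lie between -0.92 (Pde4b) and 0.80 (Adcy9), inside the dotted 2-fold lines, and Rgs3 and Pde8a each have a grey point outside them.

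Other measures moved between the same arrays. All 8 proliferation genes above background were higher on replicate 2 (median 2.64), and 10 of 11 immediate-early genes were lower (median -0.68). All 11 measured neutrophil markers were above background, 9 higher and 2 lower on replicate 2 (median 0.53), with summed signals of 247499 on replicate 1 and 352214 on replicate 2. The lower ones were the receptor genes Cxcr2 (-1.16) and Csf3r (-0.77), while S100a8 and Ltf, of granule and cytosol proteins, were each higher by 0.82. Of 87 measured markers of 13 other cell types, 21 were above background, against 40.4% of all genes. The monocyte list had 4 of 7, with summed signals of 5851 on replicate 1 and 2709 on replicate 2, mostly Csf1r (5020 and 1928). The macrophage list had 3 of 8 (1479 and 926), and the B cell list 1 of 9 (459 and 828). All these sums include genes not called, and the only called B cell gene, Igll1, had 173 and 167. The progenitor list had 1 of 7, Kit, with 244 and 547. The megakaryocyte list had 1 of 7 (657 and 837), where the called gene, Itga2b, had 332 and 365. The NK cell and the basophil and mast cell lists each had 0 of 5. The erythroid list had 3 of 8, the plasma cell list 2 of 5 and the dendritic cell list 2 of 7. The stroma and endothelium list had 2 of 8, the T cell list 1 of 6 and the eosinophil list 1 of 5. The part of these cells and states in the differences of Rgs2, Pde4b and the others was not tested.

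Several of these genes are neighbours in the genome, and some neighbours differed in their calls. In the RefSeq gene table (assembly GRCm38.p6), no other protein-coding gene stands between Rgs2 (called) and Rgs13 (1.44 and 1.98) on chromosome 1, Gnai3 (called) and Gnat2 (replicate 2 alone) on chromosome 3, or Gnaq (called) and Gna14 (neither array) on chromosome 19. On chromosome 9, Gnai2 and Gnat1 have 1 gene between them, and on chromosome 1, Rgs1 and Rgs18 likewise. On chromosome 10 the adjacent Gna15 and Gna11 were both called, close to the background. The promoter windows of the first 3 pairs are printed here as examples of a called gene beside an uncalled neighbour. Each window runs from 250 bases before to 50 after a RefSeq start, 5′ to 3′ on the gene's strand, from RefSeq with build GRCm38.p6. Capitals mark CpG dinucleotides.
Rgs2 (chr1:144004100-144004399, minus strand): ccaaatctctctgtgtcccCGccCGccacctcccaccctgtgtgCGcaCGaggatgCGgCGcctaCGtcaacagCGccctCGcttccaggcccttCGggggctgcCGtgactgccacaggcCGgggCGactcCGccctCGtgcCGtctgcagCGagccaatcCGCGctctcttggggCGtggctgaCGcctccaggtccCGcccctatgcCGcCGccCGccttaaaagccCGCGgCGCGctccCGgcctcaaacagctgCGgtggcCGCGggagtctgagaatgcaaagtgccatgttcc
Rgs13 (chr1:144177323-144177622, minus strand): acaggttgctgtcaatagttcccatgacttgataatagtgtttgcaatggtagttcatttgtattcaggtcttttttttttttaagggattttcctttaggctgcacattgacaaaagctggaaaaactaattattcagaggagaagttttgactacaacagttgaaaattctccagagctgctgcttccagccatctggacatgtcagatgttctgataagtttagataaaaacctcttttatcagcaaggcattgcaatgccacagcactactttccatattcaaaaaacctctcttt
Gnai3 (chr3:108146103-108146402, minus strand): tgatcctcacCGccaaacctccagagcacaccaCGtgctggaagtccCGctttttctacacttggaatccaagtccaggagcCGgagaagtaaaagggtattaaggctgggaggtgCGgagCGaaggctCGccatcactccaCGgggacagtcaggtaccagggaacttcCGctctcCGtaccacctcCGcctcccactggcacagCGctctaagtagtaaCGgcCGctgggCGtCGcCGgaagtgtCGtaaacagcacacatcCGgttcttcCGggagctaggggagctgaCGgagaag
Gnat2 (chr3:108092816-108093115, plus strand): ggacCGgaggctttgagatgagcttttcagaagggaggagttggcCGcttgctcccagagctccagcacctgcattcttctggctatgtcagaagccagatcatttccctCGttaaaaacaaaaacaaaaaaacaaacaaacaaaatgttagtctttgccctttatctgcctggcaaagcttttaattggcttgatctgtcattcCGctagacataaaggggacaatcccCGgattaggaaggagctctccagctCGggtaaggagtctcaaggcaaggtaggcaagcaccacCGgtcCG
Gnaq (chr19:16132434-16132733, plus strand): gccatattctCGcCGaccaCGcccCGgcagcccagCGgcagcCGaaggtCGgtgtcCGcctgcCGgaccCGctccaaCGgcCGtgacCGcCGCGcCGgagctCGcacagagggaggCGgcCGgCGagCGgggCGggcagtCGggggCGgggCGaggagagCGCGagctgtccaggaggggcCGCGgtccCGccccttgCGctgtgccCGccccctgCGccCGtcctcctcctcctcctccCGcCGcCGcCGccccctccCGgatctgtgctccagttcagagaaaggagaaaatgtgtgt
Gna14 (chr19:16435417-16435716, plus strand): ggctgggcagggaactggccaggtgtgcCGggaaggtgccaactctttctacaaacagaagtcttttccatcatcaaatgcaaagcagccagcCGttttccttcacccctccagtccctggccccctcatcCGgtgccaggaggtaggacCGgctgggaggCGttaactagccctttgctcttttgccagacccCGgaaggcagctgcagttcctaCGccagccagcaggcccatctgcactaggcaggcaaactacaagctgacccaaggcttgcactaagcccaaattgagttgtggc

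The Rgs2 window holds 33 CpG dinucleotides and that of Rgs13 holds 0. Gnai3 has 21 and Gnat2 has 8, and Gnaq has 39 and Gna14 has 7. The observed over expected CpG ratio corrects these counts for base composition: it was 0.92 for Rgs2, 0.80 for Gnai3 and 0.93 for Gnaq, against 0.00 for Rgs13, 0.45 for Gnat2 and 0.28 for Gna14. Windows were found for 67 of the 93 genes, 107 in all, since some genes have several starts. Their median ratio was 0.79 over 49 windows of genes above background and 0.45 over 58 windows of the other members. All measured genes split in the same way, with 0.78 over 7709 windows of genes above background and 0.50 over 10301 windows of the rest, so the split is not particular to these genes. Neighbours with the same call differed as well: the windows of Gna15 and Gna11, both called, had ratios of 0.21 and 1.23, and Rgs8 (0.18 to 0.48) and Rgs16 (0.72), both uncalled, also differed. Among the called members, all windows of Adcy7, Gna15, Gng2, Pde4b, Pde6d and Rgs3 had ratios between 0.06 and 0.48.

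**Figure D4:**
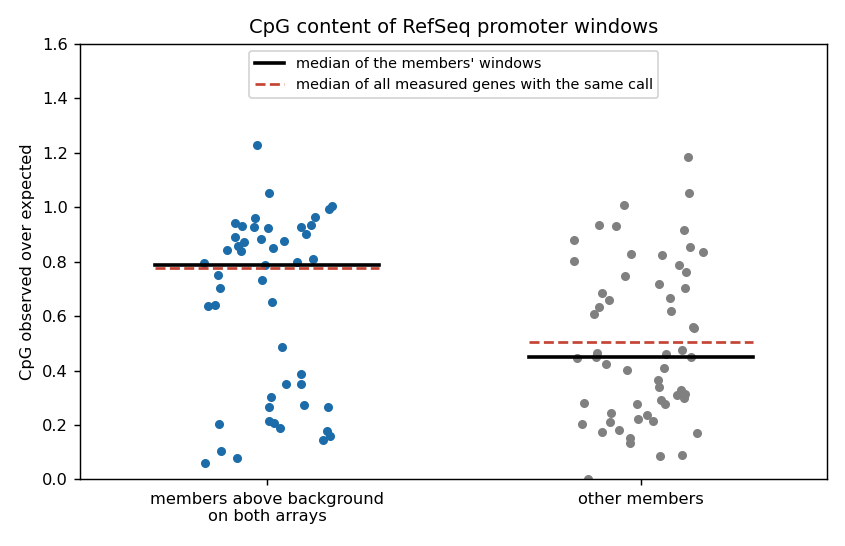
Observed over expected CpG ratio (vertical axis) of each RefSeq promoter window of members above background on both arrays (blue, 49 windows) and of the other members (grey, 58 windows). The black medians, 0.79 and 0.45, lie near the dashed medians of all measured genes with the same call, 0.78 and 0.50.

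Motifs were searched on both strands of these windows, overlaps counted. The cyclic AMP response element TGACGTCA was in 0 of 107 windows of the members, against 1.79% of all promoter windows of the table. The PU.1 motif GAGGAAGT was in 2 of 49 windows of members above background (4.08%), both in overlapping windows of Rgs19, in 3 of 58 windows of the other members (5.17%) and in 3.2% of all windows. The C/EBP motif TTGCNNAA was in 4 of 49 (8.16%), in Adcy7, Pde1b, Pde8a and Rgs3, in 3 of 58 (5.17%) and in 10.8% of all windows. The GC box GGGCGG was in 25 of 49 (51%), in 23 of 58 (39.7%) and in 35.7% of all windows. Over windows of all measured genes above background, the shares were 3.09% for the response element, 3.4% for PU.1, 8.48% for C/EBP and 63.1% for the GC box. These letters describe windows of 300 bases and say nothing of the factors.

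Genes of the same pathway that the symbol rule does not take were read from 3 lists, of which 55 of 63 genes were measured and 31 were above background. Of other G protein partners 6 of 14 were called, against 40.4% of all genes. Ric8a, a chaperone of G alpha subunits, had 3272 on replicate 1 and 2773 on replicate 2, and its paralogue Ric8b had 231 and 346. Gngt2, a gamma subunit of cones, was above background on replicate 1 alone (118 and 86.3), and Gngt1, that of rods, had 42.2 and 27.2. Of the effectors 11 of 15 were called, against 40.4% of all genes. Lower on replicate 2 were 9 of these 11 (median difference -0.11), against 43.7% of all genes above background. The lists were chosen with earlier results of these data known, so these shares describe the lists and test nothing. The beta-gamma-driven Pik3cg (phosphoinositide 3-kinase gamma) had 1461 and 1172, and its adaptor Pik3r5 had 1642 and 827, a difference of -0.99. Among the phospholipases, Plcb2 had 291 and 492, Plcb3 had 321 and 306 and Plcb4 had 242 and 307, whereas Plcb1 was on replicate 2 alone. Arhgef11, an effector of the G12/13 class, had 363 and 139 on 1 of 2 probe sets, 2.60-fold higher on replicate 1, with the replicate 2 signal just over the background of 131.

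The third list holds kinases, anchors and transcription factors of cyclic AMP signalling together with cyclic GMP kinases, guanylyl cyclases and natriuretic peptide receptors. In it 14 of 26 measured genes were above background, against 40.4% of all genes. Of these 14, 5 were lower and 9 higher on replicate 2, where 43.7% of all genes above background were lower. Their median difference was 0.22, against 0.07 over all genes above background. This list too was chosen with earlier results known. None of the cyclic GMP genes (Prkg1, Prkg2, Gucy1a2, Gucy2c, Npr1 and Npr2) was above background on both arrays. The catalytic subunits of protein kinase A were both called, Prkaca with 595 on replicate 1 and 693 on replicate 2 and Prkacb with 391 and 624. Of the regulatory subunits, Prkar1a had 3182 and 3223 and Prkar2b had 1583 and 1850, while Prkar1b was not called on both arrays. Prkar2a had 196 and 464, 2.37-fold higher on replicate 2, with 2 of its 4 probe sets above background.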

How the data were processed

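The deposited table holds linear signal intensities that the authors made with MAS5, per the submitters' processing notes, which name no version or settings here. With 2% of probe sets trimmed from each end, the mean was 250.0 for each array, so both share a scale. Per the labels' protocols, 200 ng of total RNA was labelled per array. The 2 arrays limit the precision, and no detection calls were used here.

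Of the probe sets, 34958 had 1 gene in GEO's platform annotation, 932 had several and 9211 were unnamed here. All 93 gene identifiers matched the NCBI table with no change of symbol. Signals were floored at 1 before log2, and the brightest probe set by mean log2 signal stands for a gene. Background was set from 78 sensory receptor genes, of whose 87 probe sets 2 were above it on both arrays. No test was run, since there is 1 group of 2 arrays; only these samples' spread is described. Genes above background on 1 or both arrays could be named with values, as could the first 2 others of a family in number order, and of each pathway list the first 6 measured and those over 2-fold apart. Values of Gnat1, Rgs10, Rgs13, Pde4a and Pde4d were added after they were seen. The members and lists were chosen with earlier results of these data known. Alternatives changed the background, the scaling, the probe sets, the constant added to the signal and the arrays used. The procedure was tested on simulated data with Python 3.11.15, pandas 2.3.3 and numpy 2.4.6.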

Additional observations from a re-analysis of the deposited data

Results flagged for a closer look

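Signal appeared in probe sets outside the comparisons above: 2 of 3 probe sets assigned both to Gng5, a G gamma subunit, and to its pseudogene Gng5-ps were above background on both arrays. The brightest had 21810 on replicate 1 and 24307 on replicate 2, the second 8571 and 8269, and the third, not called, 89.1 and 121. Because 2 genes share them, the signal was given to neither.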

How the results depend on the processing

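The count of 36 genes above background ranged from 26 (called by the majority of a gene's probe sets) to 44 (90th percentile) over the settings on both arrays. It was 41 and 46 on replicate 2 and replicate 1 taken alone. The share over all genes moved too. By the majority of probe sets 28% of members and 28.2% of all genes were called, and with the 90th percentile 47.3% and 45.4%. On replicate 2 alone the shares were 44.1% and 44.2%, and on replicate 1 alone 49.5% and 46.3%. The family counts stayed within 1.5 times of those given, except adenylyl cyclases, 5 with the 90th percentile (3 to 5 on the arrays taken alone), and phosphodiesterases, 5 by the majority of probe sets. Genes over 2-fold apart numbered 0 in the values given. They were 1 of 44 with the 90th percentile (Gng4), against 5.83% of all genes above that background. With median scaling they were 1 of 36 (Pde4b), against 5.41% of all genes above background. Without a filter on background they were 20 of 93, against 27.1% of all genes. With scaling to the 9 hybridisation controls they were 11 of 36, all 11 lower on replicate 2. Under the last setting the median difference was -0.75, where the median of all genes was -0.64 and 21.1% of all genes were over 2-fold apart. There 35 of 36 genes, Adcy9 excepted, were lower on replicate 2, so the sign of a difference holds relative to all genes only. Below the median of all genes lay 23 of 36 as deposited, a count that median and control scaling cannot change, and 19 of 36 with quantile normalization. By the majority of probe sets the calls of Adcy5, Gna12, Gnas, Gnb4, Grk5, Pde12, Pde4b, Pde4dip, Rgs20 and Rgs9 were lost. Calls of Adcy5, Gna11, Grk5 and Pde4dip were lost both with the 99th percentile and with genes of other organs as background. No paired analysis was possible because there is 1 group. Signals near background limit what can be said of genes not called: their RNA was not detectable by this rule, which does not show that it was absent.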
